A study of Mus musculus with 6 samples.

Results

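The genes described here encode the actin core of microvilli and the ezrin complex that ties this core to the membrane. They are Ezr, Rdx and Msn (the ERM proteins), Vil1 and Vill (villins), Pls1, Espn and Eps8 (proteins that bundle or cap actin filaments), and Clic5 and Slc9a3r1 (partners of ezrin). The 10 members were chosen by name, and all 10 are among the 24393 gene symbols listed in each library. The list was drawn up with fold changes of HOXA13 against CONTROL in view, so the values of the members in this contrast are given as a description. Counts of members past a threshold are given beside those of all genes, and nothing is read from them.

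Reads were counted per gene in 6 libraries, 3 CONTROL and 3 HOXA13. All came from KH2 mouse embryonic stem cells (labelled strain C57/BL/6), a line built for doxycycline-inducible genes. The HOXA13 cells carry the human HOXA13 gene with a FLAG tag in clones checked for correct targeting, and how the control cells were derived is not described in the sources used here. The promoter driving the transgene is not given in the sources used here. Cells of both groups were differentiated towards definitive endoderm on the mesoderm-derived feeder line M15 in the presence of Noggin, CHIR, Activin-A and basic Fibroblast Growth Factor. The labels give 1 treatment text for all samples, in which doxycycline (1.25 µg/ml) was given from day 4, a sort on day 6 kept cells carrying both CXCR4 and E-cadherin, and doxycycline was continued for another day. Whether the CONTROL cultures received doxycycline is not stated separately.

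A microvillus is a finger of membrane held up by a bundle of parallel actin filaments. Villin, the plastin Pls1 and espin cross-link the filaments, and Eps8 sits at the tip and caps their ends. The ERM proteins bind membrane proteins with their head and actin with their tail, and phosphorylation of a threonine in the tail keeps them open and active. Ezrin is the main ERM protein of the gut and kidney epithelium, whereas moesin predominates in endothelial, blood and mesenchymal cells. Clic5 and Slc9a3r1 (also called NHERF1 or EBP50) join ezrin at the apical membrane.

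Values of single libraries are listed below in the order of replicates 1, 2 and 3 of each group. Total counts lay between 12279884 and 17331638 per library, and 3 counts, taken as the smallest level that can be read, corresponded to between 0.176 and 0.240 CPM (counts scaled by TMM-normalised library size). The row of the human identifier ENSG00000106031, which the files do not pair with a symbol, had 0 counts in each CONTROL library and 192, 449 and 398 CPM in HOXA13 replicates 1, 2 and 3. CONTROL replicate 2 differed from the other CONTROL libraries more than any other pair within a group did, with a chi-square per degree of freedom of 127 and 99.8. The summed level of 16 epithelial markers was 2398, 8683 and 5975 CPM across the CONTROL libraries, against 10835, 11093 and 12701 CPM across HOXA13. That of 16 mesenchymal markers was 9834, 2732 and 8173 CPM across the CONTROL libraries, against 2249, 5752 and 5693 CPM across HOXA13. Fn1, the fibronectin gene, made up most of the HOXA13 sums, at 1997, 4631 and 4976 CPM, and stood at 3374, 2033 and 3728 CPM in CONTROL. Of the 15 tested mesenchymal markers 12 had a negative log2 fold change (6961 of 13600 tested genes), with a median of -1.26 over the 15. In edgeR 0 of them were called (0.309% of all tested genes). For 0 of them were all HOXA13 libraries lower (8.52%), and for 1, Thy1, all were higher (11.5%). Vim, the intermediate filament gene of mesenchymal cells, had 4351, 548 and 3576 CPM across the CONTROL libraries, against 155, 722 and 481 CPM across HOXA13. CONTROL replicate 2 also stood apart by its pluripotency markers, at 1228 CPM over 9 genes, against 115 and 194 CPM in the other CONTROL libraries and 377 to 652 CPM for HOXA13. The Y-linked gene Ddx3y was counted 59 times in CONTROL replicate 1, 826 times in CONTROL replicate 3 and 0 times elsewhere. Of 11 markers of definitive endoderm 10 passed the filter. Cdh1 ranged from 192 to 1893 CPM over the 6 libraries, Epcam from 18.7 to 413, Gata4 from 13.1 to 31.9, Gata6 from 5.69 to 35.8 and Sox17 from 0.975 to 4.84, while Cer1 had 0 counts in all of them.

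The ERM genes lie on different chromosomes (mm9). Ezr is at chromosome 17, 6942390 to 6987133, minus strand; Rdx is at chromosome 9, 51855255 to 51896842, plus strand; Msn is at chromosome X, 93291381 to 93363891, plus strand. Their last 26 codons, taken from GENCODE M1 transcripts on mm9, are shown because this stretch encodes the actin-binding tail and shows how far the paralogues can be told apart in a read. Capitals mark the codon of the regulatory threonine.
Ezr: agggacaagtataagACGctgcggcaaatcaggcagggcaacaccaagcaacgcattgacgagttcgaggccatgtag
Rdx: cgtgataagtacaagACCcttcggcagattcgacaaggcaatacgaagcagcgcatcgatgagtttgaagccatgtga
Msn: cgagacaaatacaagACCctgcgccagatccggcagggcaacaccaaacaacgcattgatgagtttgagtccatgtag
Over the aligned coding sequence, Ezr and Msn were identical at 73.8% of bases, Rdx and Msn at 71.9%, and Ezr and Rdx at 70.4%. The longest run of identical bases was 32, between Ezr and Msn. Vil1 and Vill were identical at 63.3% of aligned bases. No stretch of 75 bases, the read length, in a coding transcript of any of the 10 members occurred in another coding gene. A copy of at least 75 bases and 95% identity elsewhere in the genome was found for Slc9a3r1 only, with 509 bases at 97.8% identity on chromosome 1, so a part of the reads of Slc9a3r1 is uncertain.

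Of the ERM genes, ezrin was higher in HOXA13 in CPM, radixin was level and moesin was lower on average. Ezr had 183, 513 and 319 CPM across the CONTROL libraries, against 784, 820.1 and 911 CPM across HOXA13. The lowest HOXA13 library thus lay above the highest CONTROL library, and the groups did not overlap. The means were 338 ± 166 and 838 ± 65.4 CPM (SD, n = 3), a 2.48-fold difference, with a log2 fold change of 1.31 (SE 0.33) in edgeR. Relative to epithelial markers, as given below, the fold was 1.15 and the groups overlapped. In bulk libraries such as these, more cells of an expressing type and more RNA per cell cannot be told apart.

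Rdx had 242, 282 and 279 CPM across the CONTROL libraries, against 258, 273 and 284 CPM across HOXA13. The groups overlapped, and the log2 fold change of 0.02 (SE 0.14) was within its error and turned slightly negative under upper quartile scaling and other filters. Its coefficient of variation, at 8.43% in CONTROL and 4.74% in HOXA13, was among the lowest of the members. Msn, by contrast, had 1580.4, 833 and 1732 CPM across the CONTROL libraries, against 860.0, 958 and 1018 CPM across HOXA13. CONTROL replicate 2 was the lowest of all libraries, so the groups overlapped, with a log2 fold change of -0.55 (SE 0.27). This fold change was -0.82 without this library and -0.37 without CONTROL replicate 3. Relative to epithelial markers, as given below, Rdx and Msn were lower in every HOXA13 library than in any CONTROL library. Their log2 fold changes on this scale were -1.35 and -2.09.

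Since the ERM genes are counted in the same library, their shares do not depend on how libraries are scaled. Ezr made up 9.13%, 31.5% and 13.7% of the counts of the 3 ERM genes in CONTROL replicates 1, 2 and 3. In HOXA13 its share was 41.2%, 40.0% and 41.2%. The share of Msn was 78.8%, 51.2% and 74.4% in CONTROL and 45.2%, 46.7% and 46.0% in HOXA13. All HOXA13 libraries had a larger share of Ezr and a smaller share of Msn than any CONTROL library, and CONTROL replicate 2 lay closest to them. Within CONTROL, the share of Ezr had the same order as the summed epithelial markers and the reverse order of the summed mesenchymal markers, whose part in the composition was not tested. On average the share of Ezr was 18.1 ± 11.8% in CONTROL and 40.8 ± 0.681% in HOXA13 (SD, n = 3), a difference of 22.7 percentage points that was 29.4 without CONTROL replicate 2. The summed level of the ERM genes averaged 1987 ± 351 CPM for CONTROL against 2055 ± 156 CPM for HOXA13 (SD, n = 3), so the sums overlapped while the composition differed.

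**Figure D1:**
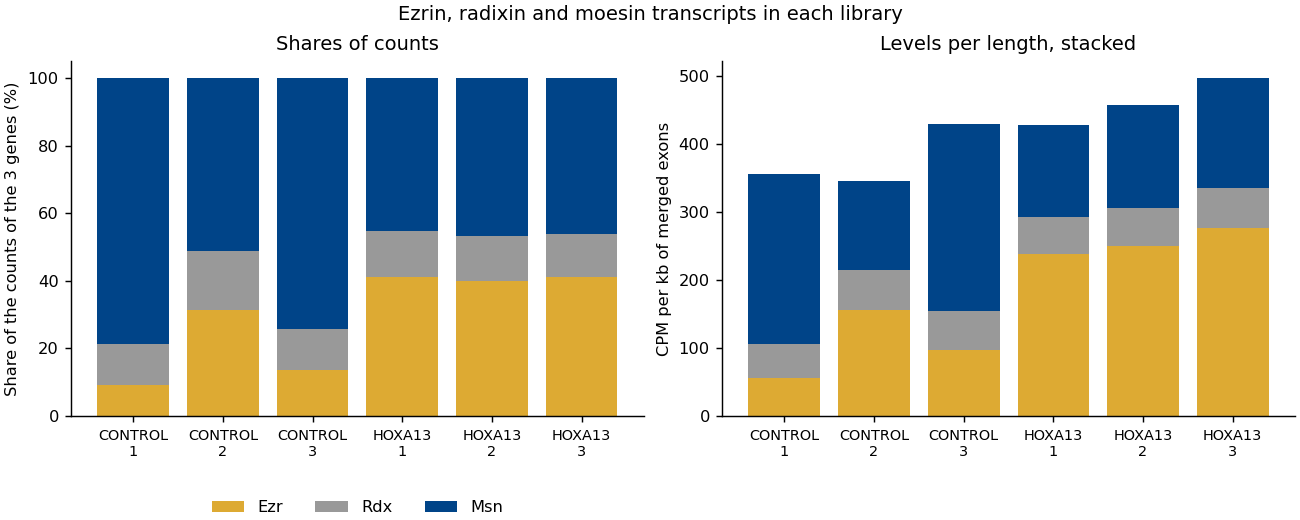
Ezrin, radixin and moesin transcripts in each of the 6 libraries: the left bars give each gene's share of the counts of the 3 genes (%), the right bars stack the levels in CPM per kilobase of merged exons. Ezr takes 40.0% to 41.2% of the counts in HOXA13 and 9.13% to 31.5% in CONTROL.

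Counts rise with transcript length, so levels of different genes were compared per kilobase of merged exons. In CONTROL the order was Msn (218 ± 76.1 CPM per kilobase), Ezr (103 ± 50.4), Slc9a3r1 (85.4 ± 10.2) and Rdx (55.3 ± 4.66; SD, n = 3). Msn lay above Ezr in CONTROL replicates 1 and 3 but not in CONTROL replicate 2, with 132 against 156 CPM per kilobase. Ezr and Slc9a3r1, neighbours in this order, overlapped in CONTROL. In HOXA13 the order was Ezr (255 ± 19.9 CPM per kilobase), Msn (149 ± 12.6), Slc9a3r1 (116 ± 4.82) and Rdx (56.1 ± 2.66; SD, n = 3), and these neighbours did not overlap. The means of the other members were at most 11.6 ± 1.81 CPM per kilobase (SD, n = 3), the level of Eps8 in HOXA13.

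Both villin genes were at few counts in CONTROL, and in HOXA13 the counts came mostly from Vill, a villin-like protein of less studied function, rather than from Vil1, the classical villin of the intestinal brush border. Vil1 (chromosome 1, 74455950 to 74482133, plus strand) had 0, 24 and 8 counts across the CONTROL libraries, against 0, 24 and 0 counts across HOXA13. A library with 0 counts allows up to 3 counts, and these low values show no order between the groups. Vil1 did not pass the expression filter and was not tested. It overlaps Usp37 on the opposite strand in an exon, and the strand setting of the counting is not stated.

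Vill (chromosome 9, 118961896 to 118980643, plus strand) had 1, 19 and 14 counts across the CONTROL libraries, against 81, 74 and 117 counts across HOXA13. These correspond to 0.0709, 1.52 and 1.05 CPM in CONTROL, where replicate 1 is below the readable level, and to 6.22, 4.33 and 7.09 CPM in HOXA13. The groups did not overlap, and the log2 fold change was 2.74 (SE 0.93). Vill passed the expression filter only through its HOXA13 libraries, so its values are given as a description. Relative to epithelial markers, as given below, it was 2.00, again without overlap. Per kilobase Vill reached 0.983 to 1.61 CPM in the HOXA13 libraries (mean 1.33), far under the 255 CPM per kilobase of Ezr.

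The bundling and capping genes differed among themselves. Eps8, which caps actin filaments at the microvillus tip (chromosome 6, 137425766 to 137603397, minus strand), had 19.7, 43.3 and 34.8 CPM across the CONTROL libraries, against 57.7, 77.9 and 63.4 CPM across HOXA13. All HOXA13 libraries were above all CONTROL libraries, with a log2 fold change of 1.02 (SE 0.30). Relative to epithelial markers, as given below, its mean was lower in HOXA13 and the groups overlapped. Espn, an actin bundler also known from the stereocilia of hair cells (chromosome 4, 151494440 to 151526480, minus strand), had 20.2, 16.95 and 27.5 CPM across the CONTROL libraries, against 33.4, 27.5 and 24.6 CPM across HOXA13. CONTROL replicate 3 lay within the HOXA13 range, and the log2 fold change was 0.40 (SE 0.26). This fold change was 0.24 without CONTROL replicate 2 and 0.59 without CONTROL replicate 3. Pls1, the plastin of intestinal microvilli (chromosome 9, 95653061 to 95745730, minus strand), was the most scattered of the tested members within HOXA13. It had 3.76, 8.71 and 2.40 CPM across the CONTROL libraries, against 16.2, 7.15 and 4.00 CPM across HOXA13. The groups overlapped, and the log2 fold change of 0.88 (SE 0.67) was 0.16 without HOXA13 replicate 1 and 1.54 without CONTROL replicate 2. Relative to epithelial markers, the means of Espn and Pls1 were lower in HOXA13 as well, with overlap.

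The partners of ezrin differed from each other in fold, with the largest fold of all members for Clic5 and a small one for Slc9a3r1. Clic5, a chloride channel-like protein first isolated with ezrin (chromosome 17, 44325521 to 44417117, plus strand), had 1.91, 2.88 and 3.37 CPM across the CONTROL libraries, against 27.1, 68.7 and 73.6 CPM across HOXA13. All HOXA13 libraries were far above CONTROL, and HOXA13 replicate 1 was the lowest of the 3. The means were 2.72 ± 0.742 and 56.5 ± 25.5 CPM (SD, n = 3), a 20.7-fold difference, with a log2 fold change of 4.37 (SE 0.46). Relative to epithelial markers, as given below, the fold was 8.55 and the groups did not overlap. HOXA13 replicate 1 was also the HOXA13 library with the lowest level of the human identifier row, at 192 CPM. Between replicates 2 and 3 the order was reversed, with 449 and 398 CPM of this row. A link between this row and Clic5 was not tested.

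Slc9a3r1, a scaffold that links ezrin to membrane transporters (chromosome 11, 115024655 to 115042495, plus strand), had 146, 162 and 185 CPM across the CONTROL libraries, against 214, 225 and 232 CPM across HOXA13. The groups did not overlap, although the difference was small, with a log2 fold change of 0.44 (SE 0.15). Its spread within groups was small as well, with coefficients of variation of 11.9% in CONTROL and 4.15% in HOXA13. Relative to epithelial markers, as given below, its mean was lower in HOXA13 and the groups overlapped.

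**Figure D2:**
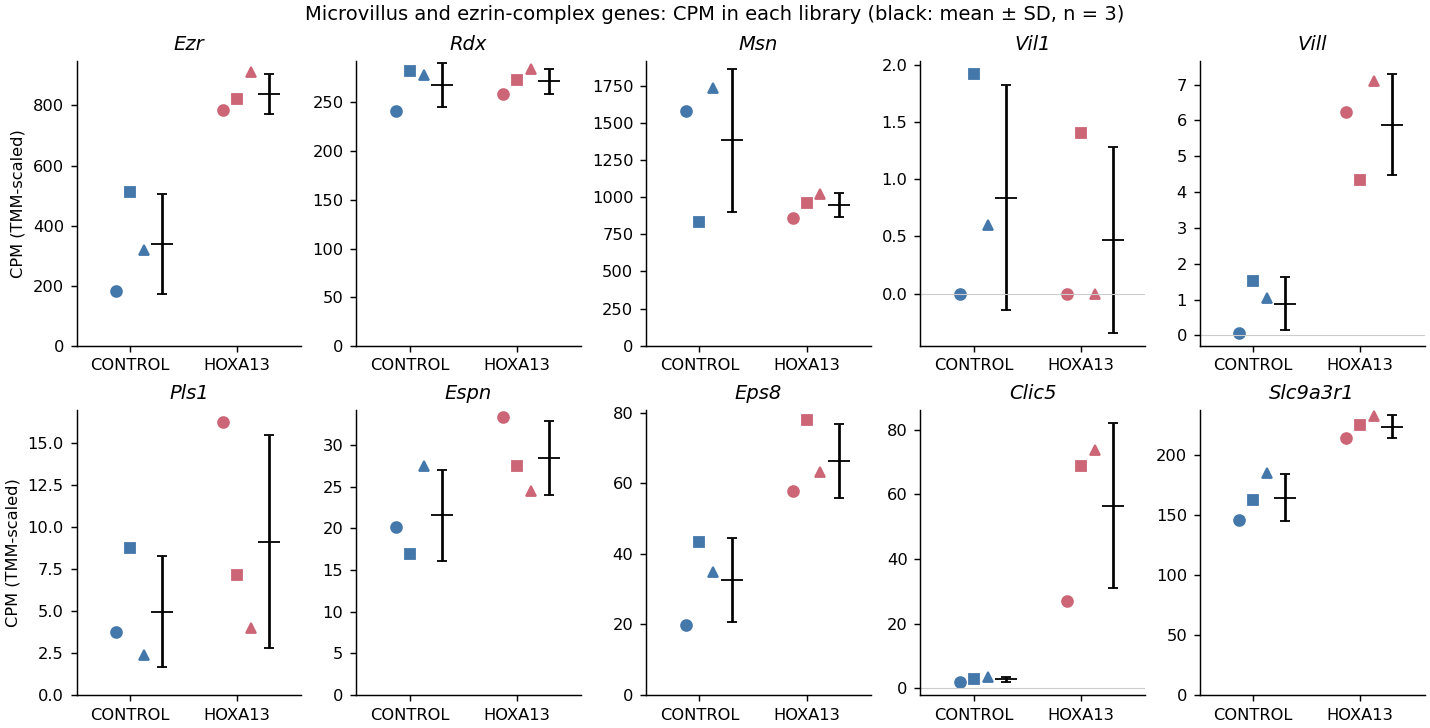
CPM of the 10 members in each library on linear axes, with circles, squares and triangles for replicates 1, 2 and 3 and the mean ± SD in black. The groups do not overlap for Ezr, Vill, Eps8, Clic5 and Slc9a3r1; CONTROL replicate 2 (blue square) is the CONTROL library nearest to HOXA13 for Ezr and Eps8.

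Of the 10 members, 9 passed the filter on low counts, Vill only through its HOXA13 libraries. For 5 members, Ezr, Vill, Eps8, Clic5 and Slc9a3r1, all HOXA13 libraries were higher, which was so for 11.5% of the 13600 tested genes, and for 0 members all were lower (8.52% of tested genes, or 20.0% in either direction). In edgeR's quasi-likelihood test 1 member, Clic5, was past an adjusted p-value of 0.05 over all genes, against 0.309% of all tested genes (0.265% higher and 0.0441% lower). This call was lost without CONTROL replicate 1 or 3, without HOXA13 replicate 2 or 3, with a replicate block and with a chromosome offset. The log2 fold change of Clic5 was 4.29 (SE 0.30) with the block and 4.35 (SE 0.45) with the offset. It ranged from 4.12 to 4.69 across the fits without 1 sample. Without CONTROL replicate 2 edgeR called 4 members and 14.2% of all genes. DESeq2 called 4 members, Clic5, Eps8, Ezr and Vill, against 5.05% of the genes it tested (3.11% higher and 1.94% lower). Limma voom with sample quality weights called 4, Clic5, Eps8 and Ezr higher and Msn lower, against 15.4% of genes. The median log2 fold change was 0.88 over the 9 members and -0.01 over all tested genes. The members lie on 7 chromosomes, and of these only chromosome 1, which holds Vil1, and chromosome 11, which holds Slc9a3r1, had a median log2 fold change over its expressed genes beyond 0.1 in size, at 0.53 and -0.17.

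The members were also set against the epithelial markers of the same library. Relative to 10000 CPM of the 16 epithelial markers, Ezr stood at 763, 590.5 and 533 across the CONTROL libraries, against 723, 739 and 717 across HOXA13, so the groups overlapped. Eps8 stood at 82.2, 49.9 and 58.2 across the CONTROL libraries, against 53.3, 70.2 and 49.9 across HOXA13, again with overlap. Clic5 and Vill did not overlap. Clic5 had 7.98, 3.31 and 5.65 across the CONTROL libraries, against 25.0, 61.9 and 58.0 across HOXA13. Vill had 0.296, 1.75 and 1.76 across the CONTROL libraries, against 5.75, 3.91 and 5.59 across HOXA13. Within CONTROL, the epithelial markers spanned 2398 to 8683 CPM and Clic5 spanned 1.91 to 3.37 CPM, both lowest in CONTROL replicate 1. Slc9a3r1 turned in direction, with 609, 187 and 310 across the CONTROL libraries, against 197, 203 and 183 across HOXA13, and the groups overlapped. The means of Espn, Pls1 and Eps8 were lower in HOXA13 as well, with overlap. On this scale Msn and Rdx were lower in every HOXA13 library than in any CONTROL library. This ratio was chosen after the data were seen, 1 of its markers, Cdh1, was used for the sort, and the part of epithelial content in the differences was not tested.

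**Figure D3:**
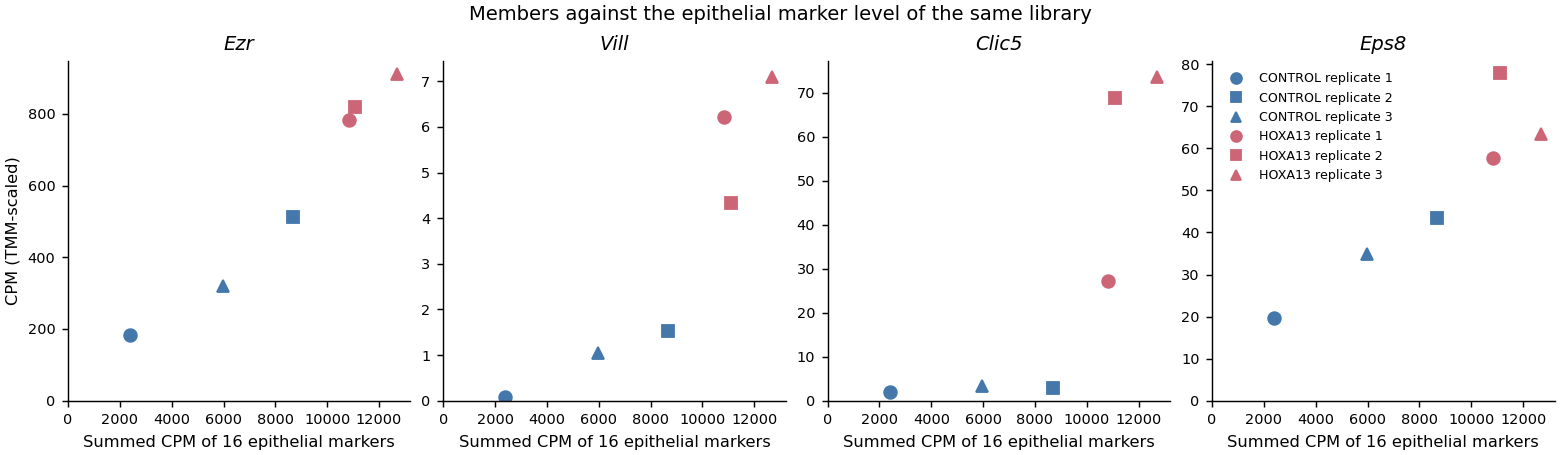
CPM of Ezr, Vill, Clic5 and Eps8 (vertical axes) against the summed CPM of 16 epithelial markers in the same library (horizontal axes), 1 point per library. Ezr, Vill and Eps8 increase along the CONTROL libraries towards HOXA13. Clic5 is at 1.91, 2.88 and 3.37 CPM in CONTROL replicates 1, 2 and 3. The part of epithelial content was not tested.

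The genes whose pattern over the 6 libraries was most like that of Ezr were Gldc, Grhl3, Ctdspl, Ect2 and Slc2a1. Likeness was the root mean square difference of centred log2 CPM, which was 0.105 for Gldc and 0.124 for Slc2a1, against a median of 0.861 over the 8445 genes averaging 16 CPM or more. Grhl3 encodes a transcription factor of surface epithelia and Slc2a1 a glucose transporter. For Vill they included Card14, Ephx4, Mal and Lad1, with differences from 0.159 for Card14 to 0.344 for Lad1 and a median of 1.81 over the 13127 genes averaging 1 CPM or more. Lad1 encodes an anchoring protein of epithelial basement membranes. Card14 had 0.213, 2.56 and 1.35 CPM across the CONTROL libraries, against 10.3, 6.44 and 9.52 CPM across HOXA13.

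The promoters of the members whose groups differed most (Clic5 and Vill) and of Ezr are printed from RefSeq on build GRCm38.p6, from 250 bases before to 50 bases after the start. Capitals, in Vill alone, mark a match to CAATAAA, a motif of the HOX13 type, read on the minus strand.
Ezr (chr17:6782731-6783030, minus strand): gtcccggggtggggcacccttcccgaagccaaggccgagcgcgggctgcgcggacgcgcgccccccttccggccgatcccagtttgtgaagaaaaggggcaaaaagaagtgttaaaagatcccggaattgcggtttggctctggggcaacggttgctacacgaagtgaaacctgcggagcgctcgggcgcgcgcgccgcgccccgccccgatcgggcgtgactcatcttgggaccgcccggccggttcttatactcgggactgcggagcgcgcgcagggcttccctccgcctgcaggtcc
Clic5 (chr17:44188322-44188621, plus strand): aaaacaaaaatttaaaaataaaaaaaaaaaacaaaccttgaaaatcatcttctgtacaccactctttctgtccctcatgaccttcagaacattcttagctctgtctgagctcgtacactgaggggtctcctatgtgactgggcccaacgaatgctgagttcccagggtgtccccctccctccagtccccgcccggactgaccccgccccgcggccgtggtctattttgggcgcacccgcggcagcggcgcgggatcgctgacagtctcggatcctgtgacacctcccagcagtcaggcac
Vill (chr9:119052528-119052827, plus strand): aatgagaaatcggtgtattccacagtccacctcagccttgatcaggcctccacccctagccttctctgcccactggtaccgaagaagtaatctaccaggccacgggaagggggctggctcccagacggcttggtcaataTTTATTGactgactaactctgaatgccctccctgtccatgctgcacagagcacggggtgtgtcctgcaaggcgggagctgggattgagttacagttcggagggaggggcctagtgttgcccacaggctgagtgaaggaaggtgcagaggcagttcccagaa
In all, 9 members matched with 12 promoter windows. Of the 12 windows 1 held CAATAAA on either strand, that of Vill, where the match begins 111 bases before the start. Among all 32851 windows 4.60% held this motif. A further motif, TCGTAAA, was in 0 of the 12 windows and in 0.597% of all windows. The promoter of Ezr is rich in CpG, with 38 CpG in 300 bases, against 16 in that of Clic5, 7 in that of Vill and a median of 7 over all windows.

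Other genes of microvilli were taken from a list of 50 in 7 roles, drawn up with earlier results of these data known, of which 43 passed the filter. In edgeR's quasi-likelihood test none passed an adjusted p-value of 0.05 (0 of 43), where 0.309% of all tested genes did, and 18 had an unadjusted p under 0.05, where 14.1% of all tested genes did. DESeq2 called 8 higher and 2 lower (5.05% of all genes in either direction), limma voom with sample quality weights 12 higher and 4 lower (15.4%), and edgeR without CONTROL replicate 2 called 6 higher and 4 lower (14.2%). For 17 of the 43 all HOXA13 libraries were higher (11.5% of all tested genes) and for 3 all were lower (8.52%). Eps8l1 and Calml4, among the 17, passed the filter only through their HOXA13 libraries. The epithelial markers differed in the same direction. All 16 log2 fold changes were positive (6639 of 13600 tested genes), with a median of 1.14. For 12 of the 16 all HOXA13 libraries were higher (11.5% of all tested genes), and edgeR called 0 of them (0.309%). The part of these markers in the values of this list was not tested. The median log2 fold change over the 43 was 0.35, against -0.01 over all tested genes. Libraries were also simulated with a dispersion per gene that both groups shared. In these, edgeR called 57.1% of 112 genes changed 4-fold but 4.55% of 88 genes changed 2-fold, and 34.3% of DESeq2's calls were on unchanged genes. The simulation drew each gene separately and held no library set apart as CONTROL replicate 2 was. Nothing is therefore read from it about the calls in these data.

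Among 11 tested partners and regulators of the ERM proteins, all HOXA13 libraries were higher for 6 and lower for 0 (11.5% and 8.52% of all tested genes). Slk, a kinase that phosphorylates the ERM threonine, had 132, 168 and 181 CPM across the CONTROL libraries, against 243, 337 and 328 CPM across HOXA13, with a log2 fold change of 0.92 (SE 0.19, edgeR adjusted p 0.102). Stk10, its close relative with the same target, had a log2 fold change of 0.84 (SE 0.25). Ptpn3, a phosphatase with a FERM domain, had 16.4, 44.8 and 20.6 CPM across the CONTROL libraries, against 89.2, 86.0 and 101 CPM across HOXA13, with a log2 fold change of 1.76 (SE 0.37, edgeR adjusted p 0.102). Plekhg6, a protein that binds ezrin, had a log2 fold change of 1.51 (SE 0.35, edgeR adjusted p 0.118). Cd44, a membrane protein bound by ERM proteins, had 318, 92.7 and 292 CPM across the CONTROL libraries, against 76.2, 225 and 203 CPM across HOXA13, and the groups overlapped.

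Of the 6 tested genes of the Eps8 family and its partners, 3 were higher in all HOXA13 libraries (11.5% of all tested genes), namely Eps8l1, Eps8l2 and Baiap2l1. Eps8l1 had 0, 10 and 22 counts across the CONTROL libraries, against 85, 134 and 179 counts across HOXA13, with a log2 fold change of 3.36 (SE 1.06). Eps8l2 had 34.4, 109 and 80.8 CPM across the CONTROL libraries, against 167, 207 and 221 CPM across HOXA13, with a log2 fold change of 1.41 (SE 0.37). Both were called by DESeq2 (adjusted p 0.0102 and 0.00727) and neither by edgeR (adjusted p 0.210 and 0.153). Eps8l1 passed the expression filter only through its HOXA13 libraries, so its values are given as a description. Of the 9 tested brush border myosins and light chains, 5 were higher in all HOXA13 libraries (11.5% of all tested genes). They included Myo1d (log2 fold change 1.36, SE 0.33), Myo5b (1.38, SE 0.41), a motor of apical recycling vesicles, and Myo1e (0.81, SE 0.21). Myo1c also had no overlap, with a log2 fold change of 0.21 (SE 0.15). Calml4, also among the 5, had 0, 0 and 5 counts across the CONTROL libraries, against 11, 111 and 13 counts across HOXA13. It passed the expression filter only through its HOXA13 libraries, so its values are given as a description. Myo1a and Myo7b, myosins best known from the enterocyte brush border, were at 46 counts or less in every library.

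Of the 5 tested bundlers, 2 were lower in all HOXA13 libraries (8.52% of all tested genes) and 1 was higher in all (11.5%). Pls3, the plastin of many solid tissues, had 227, 69.3 and 184 CPM across the CONTROL libraries, against 39.6, 66.2 and 65.8 CPM across HOXA13, with a log2 fold change of -1.49 (SE 0.42, edgeR adjusted p 0.169). Fscn1, the bundler of filopodia, had 759, 389.9 and 721 CPM across the CONTROL libraries, against 319, 289.8 and 292 CPM across HOXA13, with a log2 fold change of -1.05 (SE 0.25, edgeR adjusted p 0.124). Both are the genes that DESeq2 called lower, with adjusted p-values of 0.00715 and 0.00355. Gsn, which severs actin filaments, had no overlap either, with a log2 fold change of -0.63 (SE 0.22), whereas Actn4, an actin cross-linker, had 0.24 (SE 0.16) and was higher in all HOXA13 libraries. CONTROL replicate 2 was the CONTROL library nearest to HOXA13 for Pls3, Fscn1 and Gsn, and it was also the CONTROL library lowest in the summed mesenchymal markers, whose part in these differences and in that of Msn was not tested.

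**Figure D4:**
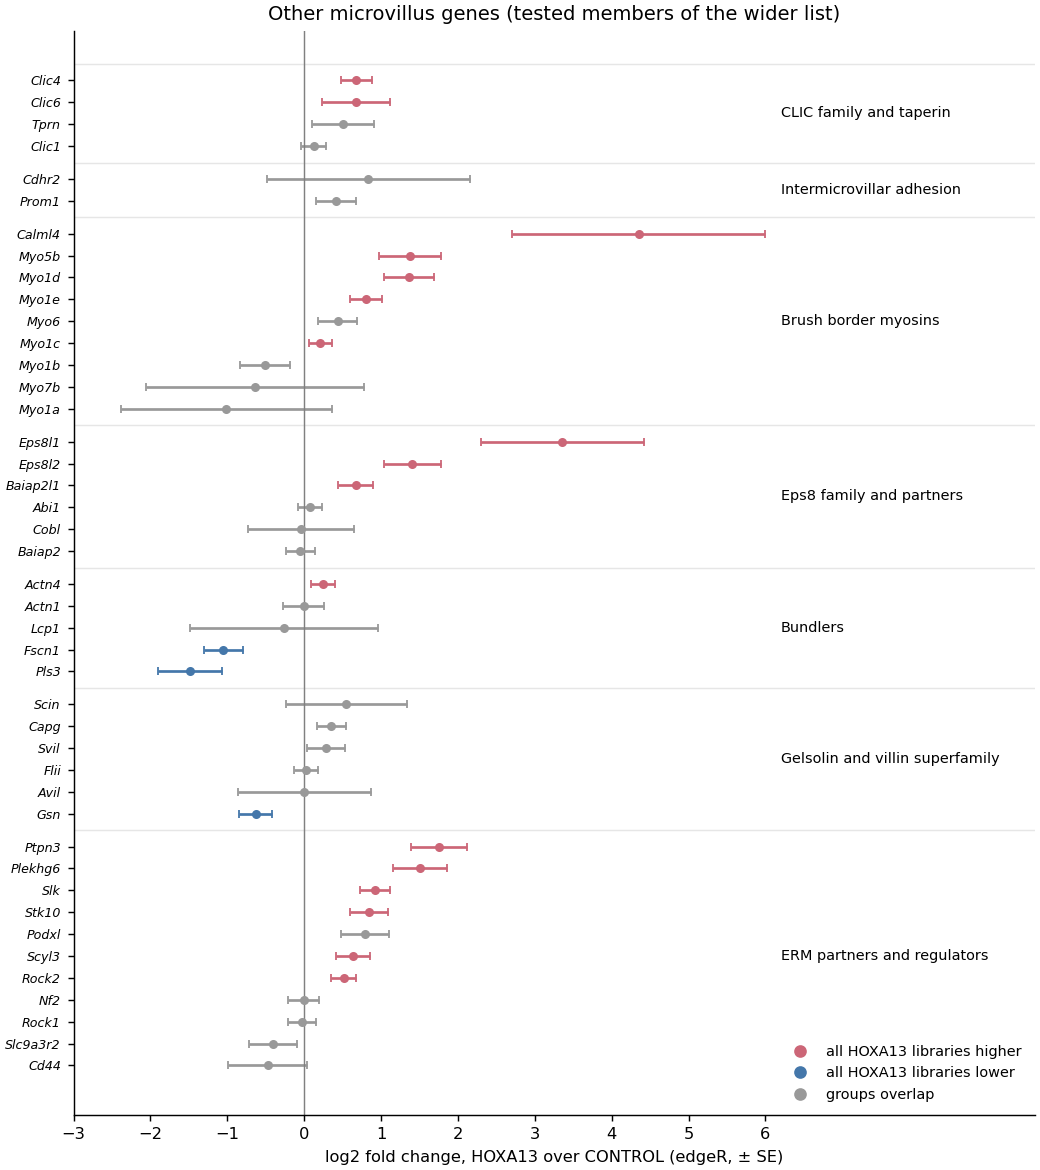
Log2 fold change of HOXA13 over CONTROL (horizontal axis, edgeR, bars ± SE) for the 43 tested genes of the wider list, grouped by role. Red points mark the 17 genes higher in all HOXA13 libraries, blue points the 3 lower in all, which are Pls3, Fscn1 and Gsn; none passed the edgeR threshold.

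Of the 5 genes listed for adhesion between microvilli, 4 were at few or 0 counts. The exception was Prom1, a membrane protein of cell protrusions, with 15.7, 21.8 and 15.97 CPM across the CONTROL libraries, against 29.1, 22.0 and 20.3 CPM across HOXA13, a log2 fold change of 0.41 and overlapping groups. Cdhr2, a cadherin of these links, had 0, 15 and 9 counts across the CONTROL libraries, against 7, 24 and 23 counts across HOXA13, and the groups overlapped. Ush1c had 0 counts in all 6 libraries, and Cdhr5 and Anks4b had at most 0.182 CPM in any library. Enzymes, transporters and fatty acid or lipid carriers of enterocytes were low as well, since Alpi, Sis, Fabp1, Fabp2 and Apoa4, that is 5 of 12, had 0 counts in every library. The summed level of these 12 genes was 24.3 to 93.1 CPM in CONTROL and 39.5 to 108 CPM in HOXA13, and Mme, which many tissues express, accounted for 18.4 to 99.3 CPM of it per library.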

How the data were processed

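Poly-A RNA of 6 cultures was sequenced from strand-specific libraries (75-base reads). The authors deposited raw counts of reads for each gene symbol, made with TopHat2 2.0.14 (per the labels) on mm9 and HTSeq 0.6.1p1; the annotation, the strand option and how multi-mapping reads were handled are not given in the sources used here. Depth was 12279884 to 17331638 counts per library. The floor of 3 counts covers counting error only.

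The fit used edgeR 4.0.16 in R 4.3.3: filterByExpr by group (minimum count 10, minimum total 15), which kept 13600 of 24393 genes, TMM scaling, and the quasi-likelihood test of the group over all 6 samples with the settings of the earlier method, Benjamini-Hochberg adjustment over all genes and a threshold of 0.05. Standard errors came from the F statistic. CPM used TMM-scaled library sizes, and lengths and positions were from GENCODE M1 (mm9). Alternatives were DESeq2 1.42.0, the tool of the study, limma 3.58.1 voom with sample quality weights, the edgeR 4 method, other scalings and filters, a replicate block, a chromosome offset and leaving out each sample. All replicate pairs differed by more than sampling noise (chi-square per degree of freedom 15.8 or more). P-values measure the spread between these samples, which may be separate clones; the labels do not say. The code was tested on simulated counts of 13600 genes with 200 changed. Copies in the genome were searched with megablast. Named genes were the 10 members, the genes of the wider list past the threshold in edgeR or DESeq2, its 5 largest and 5 smallest log2 fold changes among genes of at least 5 CPM without overlap, and the 5 genes most like Ezr and like Vill, of which 1 is not reported here. Some further genes of the wider list (Stk10, Cd44, Baiap2l1, Myo1a, Myo7b, Calml4, Prom1, Ush1c, Cdhr2, Cdhr5 and Anks4b) were named after their values were seen. The members and lists were chosen with earlier results of these data known.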

Additional observations from a re-analysis of the deposited data

How the results depend on the processing

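The counts of calls depended on the setting. Against 42 of the 13600 tested genes, 1 member and 0 genes of the wider list, DESeq2 called 722 of 14298, 4 and 10, and limma voom with sample quality weights 2101, 4 and 16. The edgeR 4 method gave 106 of all genes, no filter 163 with 1 gene of the wider list (Ptpn3), and keeping genes that average 50 counts or more 9. The chromosome offset gave 1 gene and 0 members (1745 genes and 5 members at an unadjusted p under 0.05). Across the fits without 1 sample, all genes called ranged from 0 to 2006 (of 14084), members from 0 to 4 and the wider list from 0 to 10. The highest values came without CONTROL replicate 2, where Clic5, Eps8 and Ezr were called higher and Msn lower. Clic5 lost its call without CONTROL replicate 1 or 3 and without HOXA13 replicate 2 or 3. With the replicate number as a block 0 genes and 0 members were called (1392 genes and 5 members at an unadjusted p under 0.05). The deviations of samples sharing a number correlated at -0.210, -0.271 and 0.0979, or -0.128 on average. With 3 samples per group, these values cannot decide whether equal numbers mark a shared run, and the labels do not say. The cause of the lost calls was not tested.

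Ezr, Vill, Clic5, Eps8, Espn, Pls1 and Slc9a3r1 kept a positive and Msn a negative log2 fold change in all 14 planned settings run for them. Across the fits without 1 sample, Ezr ranged from 0.99 to 1.72, Vill from 2.17 to 3.36 and Clic5 from 4.12 to 4.69. In these fits Msn ranged from -0.82 to -0.37, Espn from 0.24 to 0.59 and Pls1 from 0.16 to 1.54. The difference in the share of Ezr ranged from 18.2 to 29.4 percentage points (27.6 per length). Rdx changed sign around 0, with -0.0174 under upper quartile scaling, -0.00114 when no filter was applied, -0.00601 for genes averaging 50 counts or more, and -0.0679 to 0.0470 without 1 sample. Relative to the epithelial markers, a scale chosen after seeing the data, the values reversed to -1.35 for Rdx, -0.28 for Pls1, -1.001 for Espn, -0.14 for Eps8 and -0.92 for Slc9a3r1, and they were 0.21 for Ezr, 2.00 for Vill, 3.10 for Clic5 and -2.09 for Msn. Depth limits Vil1, which was at or under 24 counts in every library.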

Other observations

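Espn, Rdx, Clic5 and Eps8 are also genes of the stereocilia of hair cells, which are modified microvilli. Of 6 markers of hair cells, Otof and Strc had 0 counts in every library. The summed level of the 6 was 8.92 to 11.6 CPM in CONTROL and 4.61 to 13.1 CPM in HOXA13, so the groups overlapped. Myo7a accounted for 2.93 to 9.38 CPM of the sum per library. Gfi1, which did not pass the filter, had 7, 11 and 6 counts across the CONTROL libraries, against 0 in each HOXA13 library. Usp37, which lies opposite Vil1 on chromosome 1, had 48.6, 61.1 and 56.3 CPM across the CONTROL libraries, against 95.3, 80.7 and 80.3 CPM across HOXA13, without overlap, and the median log2 fold change over 470 expressed genes of chromosome 1 was 0.53. Sytl3, which overlaps Ezr on the opposite strand, had 0 counts in all libraries except HOXA13 replicate 3, with 6.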
